A study of Rattus norvegicus with 28 samples.

Results

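The genes described here encode the subunits of voltage-gated sodium channels, voltage-gated calcium channels and HCN channels. They were taken as every probe set whose single gene symbol in the authors' saline table began with Scn and a digit, with Cacn, or with Hcn and a digit, and of several probe sets for a gene only that with the highest mean over the 28 arrays was kept. This gave 39 genes from 50 probe sets, of 4779 named genes and 15866 probe sets in all. They comprise 10 sodium channel alpha subunits, 3 sodium channel beta subunits, 9 calcium channel alpha1 subunits, 1 alpha2delta subunit, 4 calcium channel beta subunits, 8 gamma subunits and 4 HCN channels. The files list Scn2a as Scn2a1 and Scn7a as Scn6a. Scn3b stands in the files under the older symbol Scnb3 and so falls outside the rule, and its values are given only beside those of other sodium beta subunits.

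Voltage-gated sodium channels open on depolarization and carry the rising phase of the action potential. The pore is formed by an alpha subunit, and beta subunits with a single membrane span set gating, surface expression and cell adhesion. In rodent forebrain, Scn3a is known as the alpha subunit that prevails before birth and soon after, while Scn1a and Scn8a become prominent as neurons mature. Calcium channels of the P/Q, N and R types (Cacna1a, Cacna1b, Cacna1e) trigger transmitter release, L-type channels (Cacna1c, Cacna1d) couple activity to transcription, and T-type channels (Cacna1g, Cacna1i) open near rest and favour burst firing. HCN channels open on hyperpolarization and carry the current Ih, which sets the resting potential and the integration of synaptic input. Several gamma subunits (Cacng2, Cacng3, Cacng4, Cacng5, Cacng7 and Cacng8) serve mainly as auxiliary subunits of AMPA receptors, the principal glutamate receptors of fast synaptic transmission.

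RNA of the amygdala of rat pups was measured on 28 Affymetrix arrays, 1 sample each. Pups of 3 conditions were trained: 8-day pups given saline (7 paired and 7 unpaired samples), 8-day pups given corticosterone (3 and 3), and untreated 12-day pups (4 and 4). In paired training a tail shock fell at the end of each presentation of peppermint odor, unpaired controls received odor and shock apart, and the amygdala was dissected directly after the session. Strain, sex and dose are not in the labels used here, and nothing states whether a sample is 1 pup or a pool, so p-values measure the spread between samples, which may be technical in part.

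In saline and 12-day pups, replicates 3 and 4 (8 arrays) were on a larger array design, and the other 20 arrays were on a smaller design. Saline arrays fell into 3 sets (replicates 1 to 2, 3 to 4 and 5 to 7) and 12-day arrays into 2 (1 to 2 and 3 to 4), each with as many paired as unpaired samples. The conditions were not on a common scale, with array medians (log2) of 6.05 to 6.19 for saline, 5.06 to 5.09 for corticosterone and 6.38 to 6.46 for 12-day pups. Levels are therefore compared between conditions as within-array percentiles, where 0 is the lowest and 100 the highest of the 15866 probe sets on an array. Log2 values as deposited are tested only for training within a condition and for differences of that training effect between conditions. Where log2 ranges of several conditions are given, they are descriptions on scales that differ. A list of 14 general neuronal genes averaged a percentile of 93.5 in saline, 91.9 in corticosterone and 95.3 in 12-day arrays. The striatal and choroid plexus lists varied between array sets, and the choroid plexus list had set means from 46.2 to 61.6.

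Promoter sequences are shown for sodium channel genes that moved with age, a pair of neighbours that rose and 1 gene that fell. RefSeq's promoter windows (GRCr8) held 29 entries for 26 of the 39 genes. In that annotation Scn2b and Scn4b are neighbours on the same strand of rat chromosome 8, and both rose with age, while Scn3a, which fell, lies on chromosome 3 in a cluster with Scn2a, Scn1a, Scn9a and Scn7a. The 150 bases before the annotated start of each gene read, 5′ to 3′ on the gene's strand, with the letters CAGCTG in capitals where they occur:
Scn2b (chr8:54322233-54322382, + strand): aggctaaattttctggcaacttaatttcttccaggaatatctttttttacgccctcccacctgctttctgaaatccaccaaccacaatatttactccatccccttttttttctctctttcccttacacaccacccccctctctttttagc
Scn4b (chr8:54343723-54343872, + strand): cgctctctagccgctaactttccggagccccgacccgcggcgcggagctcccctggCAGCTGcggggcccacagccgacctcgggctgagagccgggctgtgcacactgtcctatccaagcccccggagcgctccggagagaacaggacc
Scn3a (chr3:70666199-70666348, - strand): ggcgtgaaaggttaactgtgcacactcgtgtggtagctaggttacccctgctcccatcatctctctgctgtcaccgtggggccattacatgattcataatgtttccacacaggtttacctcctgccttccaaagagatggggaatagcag

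The neighbouring genes differ in composition. Over the 250 bases before the start, GC content was 38.8% for Scn2b with 1 CpG, and 71.6% for Scn4b with 21 CpG. For Scn3a it was 41.6% with 4 CpG. The E-box letters CAGCTG, searched on both strands, occur in 12.0% of all 33469 promoter windows and in 7 of the 29 windows of these genes. The left segment of the RE1 element, TTCAGCACC, occurs in 0.305% of all windows. RE1 is the site bound by REST, a repressor of neuronal genes. Among these genes only Cacng3 holds that segment, in 2 copies that start 72 bases apart, shown because Cacng3 rose with age (capitals mark TTCAGCACC and, before it, the right segment GGACAGC read on the other strand, with lower case for all the rest of the 24 bases):
Cacng3 copy 1 (chr1:186632348-186632371, + strand): GCTGTCCcTTCAGCACCacggacc
Cacng3 copy 2 (chr1:186632420-186632443, + strand): GCTGTCCgTTCAGCACCacggacc
The right segment alone occurs in 5.30% of windows. The full RE1 element of 21 letters was also searched, with a few mismatches allowed. It occurs in 0 of the 29 windows of these genes, Cacng3 included, and in 0.0627% of all windows. These letter matches are a description of the windows only.

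Most of the channel genes sat in the lower part of the arrays. Of the 39, 15 had a mean percentile of at least 50 in some condition, 9 peaked between 35 and 50, and 15 stayed under 35 in every condition. A percentile of 35 corresponded to log2 values of 3.34 to 3.64 in saline arrays, where small log2 differences shift ranks by many places. No detection calls were used here, so how far a low value lies above background is unknown.

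Among the sodium alpha subunits, the forebrain members Scn2a, Scn3a and Scn1a stood high. Scn2a, the alpha subunit of axon initial segments in young neurons, averaged the 86.6 percentile in saline arrays and Scn3a the 85.8, with Scn1a, the alpha subunit prominent in inhibitory neurons, at 63.7. The skeletal muscle subunit Scn4a and the sensory neuron subunit Scn11a, named after their values were seen, stayed under 15 in every condition. Other subunits of such tissues stood higher. Scn9a averaged 40.9 in saline arrays, Scn10a 12.6 in saline and 38.5 in corticosterone arrays, and the muscle calcium channel pore Cacna1s 28.4 in saline arrays. Of the calcium channel pore subunits, Cacna1b (73.3 in saline arrays), Cacna1g (60.1) and Cacna1c (56.5) were the highest, and Cacna1f, a channel of the retina, the lowest at 5.88. The intracellular beta subunits Cacnb3 (83.9), Cacnb2 (66.2) and Cacnb1 (59.3) were high, and so were the gamma subunits Cacng3 (72.8) and Cacng2, which is stargazin (72.0). Of the HCN channels, Hcn3 averaged 47.9 and Hcn2 36.9, while Hcn4 was at 1.14. Each value places a probe set among all others of its array and is not a measure of transcripts per length, so the order between genes may reflect probe affinity.

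**Figure D1:**
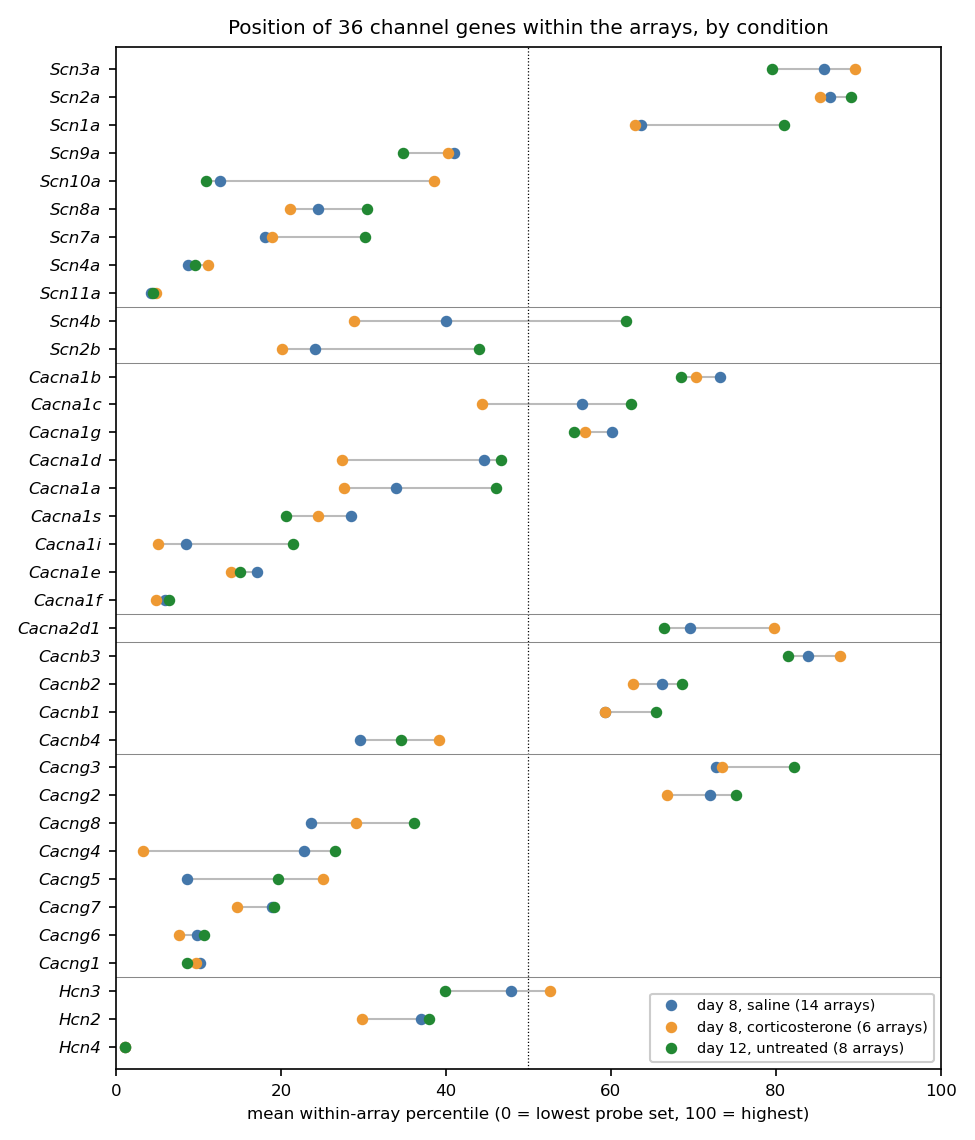
Mean within-array percentile of the channel genes (x axis, 0 to 100) in 14 saline, 6 corticosterone and 8 untreated 12-day arrays, grouped by subunit family from sodium alpha at the top to HCN at the bottom. Points are condition means, the grey line joins them, and the dotted line marks the middle of the array. Scn1a, Scn2b and Scn4b are farther right on day 12 than on day 8, and Scn10a stands apart in the corticosterone arrays.

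On day 12, the sodium beta subunits Scn2b and Scn4b and the alpha subunit Scn1a stood well above their day 8 position, while Scn3a, Scn9a and Hcn3 stood below it. Of the 39 genes, 21 were called higher on day 12 than in 8-day saline pups and 8 lower (limma on percentiles with array design and training as terms, Benjamini-Hochberg adjusted p under 0.05 over all probe sets). The background was large: 34.5% of all 15866 probe sets were called higher and 28.9% lower, 63.4% in all, against 29 of 39 here. The median difference was 1.23 percentile points over the 39 genes and 0.16 over all probe sets. Differences of at least 10 points were rarer, at 4.17% of all probe sets higher and 3.96% lower, and 9 of the 39 genes were among the higher and 0 among the lower. That size was chosen after the data were seen.

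Age is not separable from other things in this design. The 12-day pups were untreated, the 8-day pups had received saline, and each condition was normalized on its own, so age, treatment and processing cannot be told apart. With log2 values centred on each array's median in place of percentiles, 13 genes were called higher and 15 lower (22.3% and 52.6% of all probe sets), and the median shift of all probe sets was then -0.25 on the log2 scale. With array set as a random block, a fit added after the data were seen, the calls fell to 16 higher and 6 lower (22.4% and 19.7%). A test of whether the age difference itself varied between the array designs called 0 of the 39 genes by limma (1.29% of all probe sets).

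Among the genes described here, the beta subunits Scn2b and Scn4b moved farthest. Scn2b, which binds the pore covalently and promotes its surface expression, ranged from 21.9 to 27.4 with a median of 23.9 in the 14 saline arrays, and from 40.6 to 46.0 with a median of 44.2 in the 8 arrays of day 12. No 12-day array overlapped a saline array, and the difference was 19.6 points (SE 0.74, limma adjusted p 3.38e-15). In log2 the saline arrays were uniformly low, between 2.54 and 2.82, and the 12-day arrays lay between 4.41 and 5.65.

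Scn4b, which provides the open-channel blocker behind resurgent sodium current and is abundant in striatal projection neurons, differed by 18.9 points (SE 3.03, limma adjusted p 1.78e-05, or 0.0026 with the random block). Its day 12 arrays split by design, with percentiles of 46.5, 46.9, 48.5 and 56.3 on the smaller design and 70.6, 73.9, 76.0 and 75.7 on the larger. On the smaller design these overlapped the 10 saline arrays (26.1 to 47.1), and the difference there was 11.4 points (adjusted p 0.0151), against 29.7 points on the larger design (adjusted p 1.31e-05). The test of the difference between the designs gave an adjusted p of 0.0626. A list of 11 measured striatal projection neuron genes averaged 59.3 in the 12-day arrays of the smaller design and 76.5 in those of the larger, against 60.8 and 70.6 in saline arrays. Its part in the rise of Scn4b was not tested. Over all arrays, 1 of the 11 genes of that list was called higher with age and 0 lower, with a median of -0.17 points. Scn3b, a sodium beta subunit outside the rule, went the other way from Scn2b and Scn4b. Its mean percentile was 87.5 ± 4.90 on day 8 (SD, n = 14) and 76.7 ± 9.67 on day 12 (n = 8), a difference of -7.91 points (SE 1.00, limma adjusted p 8.78e-07).

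Among the pore-forming alpha subunits, Scn1a rose and Scn3a fell. Scn1a ranged from 54.6 to 70.2 (median 64.3) in saline arrays and from 75.3 to 84.2 (median 81.4) on day 12. All 8 arrays of day 12 were above all 14 saline arrays, and the difference was 17.1 points (SE 1.62, limma adjusted p 1.24e-08). Scn3a ranged from 76.2 to 89.9 (median 87.8) in saline arrays and from 74.3 to 85.0 (median 78.5) on day 12. The groups overlapped on the smaller design, where saline replicates 1 and 2 were low at 76.2 to 82.4, and were apart on the larger. The difference of Scn3a was -7.44 points (SE 1.63, limma adjusted p 0.000492).

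Scn2a, between them in the same gene cluster, was at 86.6 ± 4.96 in saline arrays and 89.0 ± 1.01 on day 12 (SD, n = 14 and 8), and its difference of 2.56 points (SE 1.84) did not pass the test (limma adjusted p 0.237). Saline replicates 1 and 2 of Scn2a, at 91.9 to 93.6, lay above every 12-day array, and replicates 5 to 7, at 78.0 to 85.0, below all of them. Scn8a, the alpha subunit of mature nodes of Ranvier, rose by 5.64 points (SE 0.52), from log2 values of 2.53 to 2.83 in saline arrays to 2.80 to 3.18 on day 12. On the centred log2 scale its difference was 0.00, so the call rests on the percentile scale. Scn9a, best known from peripheral sensory neurons, fell by 6.62 points (SE 0.56, limma adjusted p 1.96e-09), and its groups did not overlap in either design. Scn7a, a sodium-sensing relative of these channels, rose by 11.9 points from a low level, with log2 values of 2.34 to 2.52 in saline arrays and 2.69 to 3.83 on day 12.

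**Figure D2:**
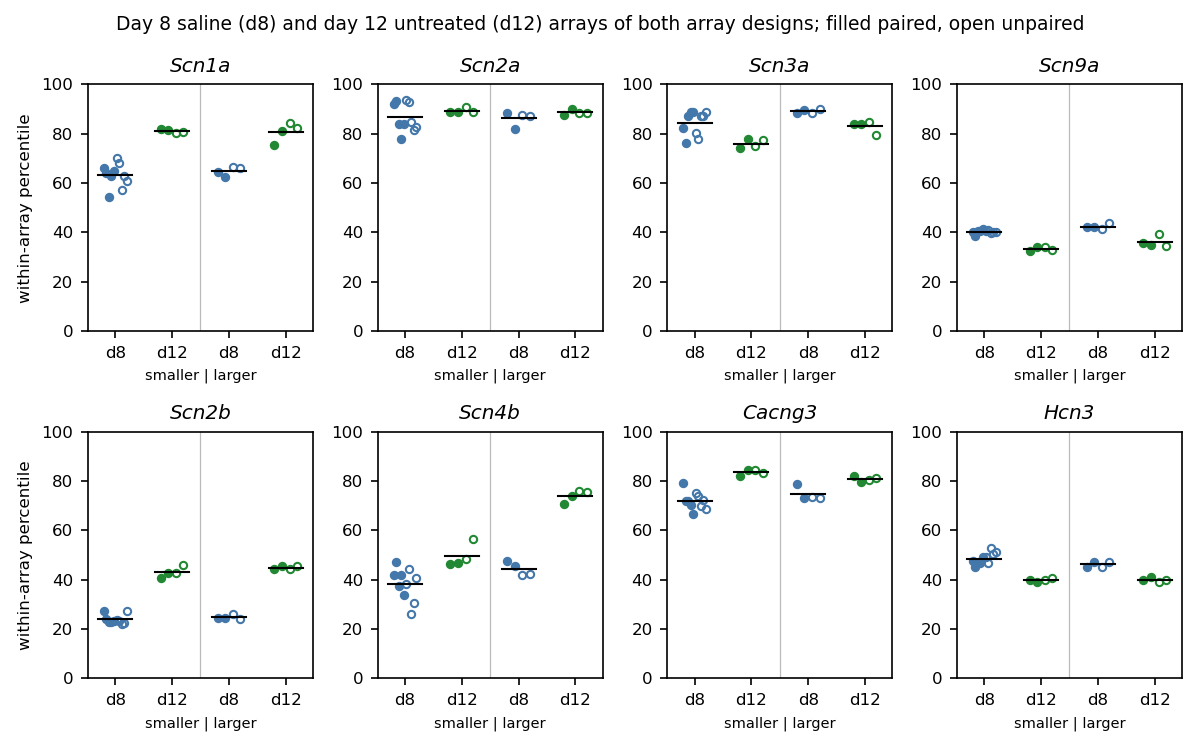
Within-array percentile (y axis, 0 to 100) of 8 channel genes in each 8-day saline array (d8, blue) and 12-day untreated array (d12, green), split by array design, with filled circles for paired and open circles for unpaired training and a line at each mean. Scn1a and Scn2b separate by age on both designs, Scn3a and Hcn3 are lower on day 12, and Scn4b is far higher on day 12 on the larger design.

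Calcium channel subunits gave smaller and more mixed differences. Of the 9 pore subunits, 4 rose, 3 fell and 2 did not pass the test. Cacna1a, the P/Q-type pore, differed by 14.2 points (SE 3.35, limma adjusted p 0.000987), but its arrays varied between sets: 50.9, 55.1, 54.0 and 58.4 on the smaller design on day 12 and 40.5, 39.9, 35.4 and 34.7 on the larger. Saline arrays of Cacna1a lay between 28.1 and 39.2 except replicate 1, at 55.7 in the paired and 47.9 in the unpaired sample. A second probe set of the gene rose by 17.2 points and the other, at a mean percentile of 6.81, by 1.16.

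Cacna1c, an L-type pore, was at 56.5 ± 4.24 in saline and 62.4 ± 1.92 in 12-day arrays (SD, n = 14 and 8), a difference of 5.50 points (limma adjusted p 0.00545), which did not pass with the random block (adjusted p 0.0575). The other L-type pore, Cacna1d, differed by 1.97 points (SE 1.01, limma adjusted p 0.0953), and the N-type pore Cacna1b by -4.48 (SE 2.00, limma adjusted p 0.0569). Neither passed, although on the larger design alone both did (3.11 and -5.98 points, limma adjusted p 0.0205 and 0.000634). The other Cacna1d probe sets, at mean percentiles of 19.9 and 23.3, were called higher, by 6.68 and 2.01 points (limma adjusted p 2.26e-12 and 5.47e-07). Both T-type pores moved: Cacna1g by -3.19 points (limma adjusted p 0.0335, or 0.208 with the random block, and -0.36 on the smaller design alone) and Cacna1i by 13.5 points (SE 1.65) at the bottom of the arrays, with log2 values from 1.99 to 2.52 in saline and from 2.44 to 2.76 in 12-day arrays. On the centred log2 scale Cacna1i differed by 0.10 and was not called (limma adjusted p 0.204). Cacna1e, the R-type pore, fell by 2.12 points and Cacna1f rose by 0.53, and Cacna1s, the skeletal muscle pore, chosen after its values were seen, fell by 7.78 points from a percentile of 28.4.

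Of the auxiliary calcium channel subunits, all 4 beta subunits passed the test, 3 upward and 1 downward. Cacnb1 ranged from 57.5 to 60.4 in saline arrays and from 62.3 to 68.1 on day 12, without overlap, and rose by 5.99 points (SE 0.60, limma adjusted p 3.03e-08). Cacnb2 rose by 2.19 points (SE 0.62) and Cacnb3 fell by 1.62 (SE 0.66), and neither passed with the random block (adjusted p 0.127 and 0.262). The other Cacnb2 probe set, at a mean percentile of 33.6, rose by 8.37 points (SE 0.47, limma adjusted p 2.33e-12). Cacnb4, named with its values known, rose by 5.26 points (SE 2.19, limma adjusted p 0.0424) and did not pass with the random block (adjusted p 0.380), on either design alone or on the centred log2 scale. Of the 4, only Cacnb1 passed in all of these fits. The call of Cacnb3 was lost without any of 10 single samples, and that of Cacna1g without any of 7. Cacna2d1, the alpha2delta subunit bound by gabapentin, differed by 0.35 points (SE 2.07, limma adjusted p 0.894), a value that pools opposite signs. On the smaller design the difference was -4.87 points (adjusted p 0.0782) and on the larger 7.83 (adjusted p 0.00829, without overlap), and the test of the difference between designs did not pass (12.7 points, adjusted p 0.053). Levels of Cacna2d1 also differed between the designs. Its saline arrays lay between 71.0 and 81.3 on the smaller design and between 50.8 and 58.0 on the larger, without overlap.

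Among the gamma subunits, Cacng3, an AMPA receptor auxiliary subunit of cortical neurons, rose most clearly at a high level. It ranged from 66.8 to 79.2 (median 72.7) in saline arrays and from 79.5 to 84.5 (median 82.0) on day 12, with no overlap, a difference of 9.30 points (SE 1.36, limma adjusted p 5.99e-06). Stargazin, Cacng2, differed by 4.92 points (SE 2.34, limma adjusted p 0.0736), which did not pass. Cacng8, another AMPA receptor auxiliary subunit, rose by 14.3 points (SE 2.63) from a saline range of 1.53 to 35.2 to 27.1 to 41.3 on day 12. Cacng5, named with its values known, rose by 10.0 points (SE 2.08), and on the centred log2 scale its difference was 0.04 (limma adjusted p 0.774), so the call rests on the percentile scale. In all, 4 of the 8 gamma subunits rose, 1 fell and 3 did not pass.

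Of the HCN channels described here, Hcn3 moved. Hcn3 ranged from 45.1 to 52.9 in saline arrays and from 39.05 to 41.1 on day 12, without overlap, and fell by 7.78 points (SE 0.81, limma adjusted p 5.45e-08). Hcn2 differed by 1.23 points (SE 0.84, limma adjusted p 0.212) and Hcn4 by -0.05, and neither passed the test. In both array designs the day 8 and day 12 percentiles of 13 of the 39 genes did not overlap with day 12 higher, and those of 5 did not overlap with day 12 lower (17.6% and 15.5% of all probe sets).

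**Figure D3:**
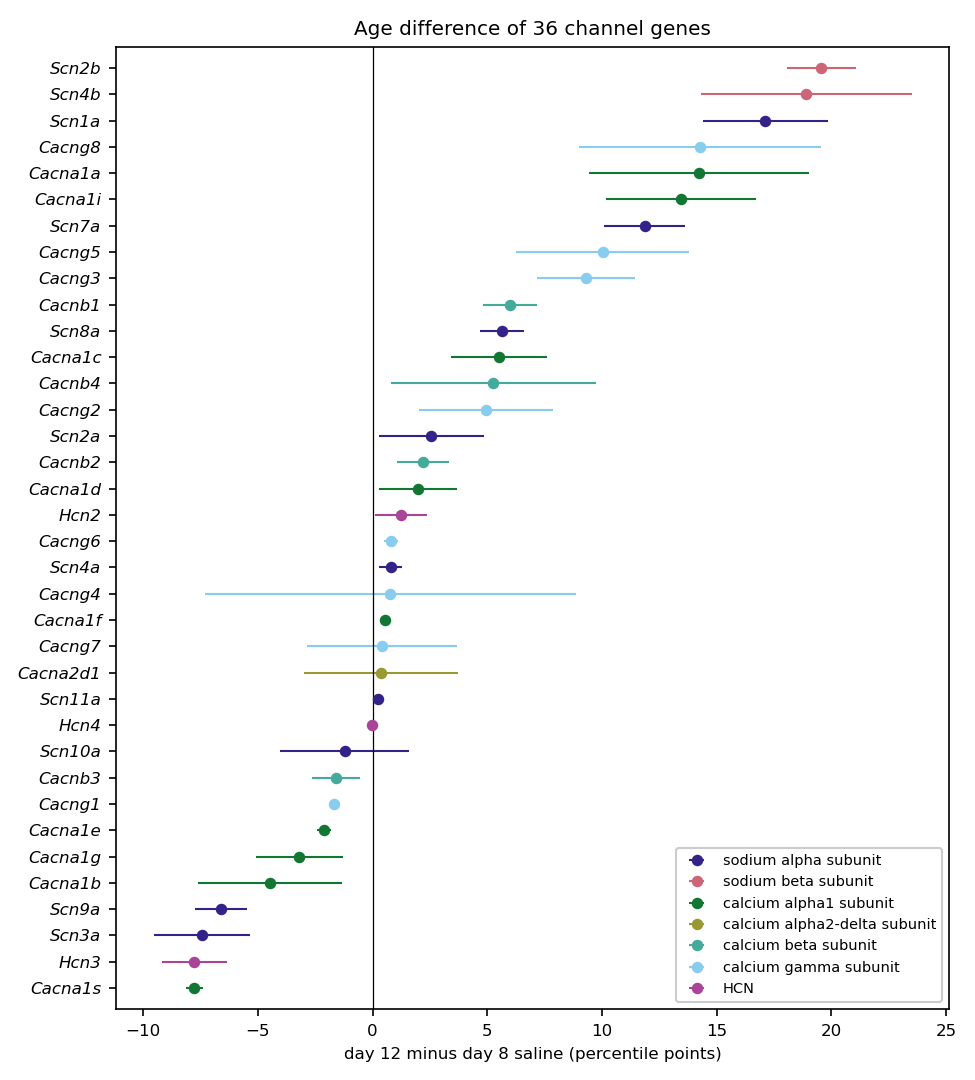
Difference between day 12 and day 8 saline arrays in percentile points (x axis) for the channel genes, ordered by size and coloured by subunit family. Points are estimates from the fit with array design and training, and bars are 1 standard error from the fit with array set as a random block. Scn1a, Scn4b and Scn2b lie between 17.1 and 19.6 points, and Hcn3 and Cacna1s lie lowest at -7.78.

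Other genes moved with age beside the channels, and their part in these differences was not tested. Beside the list counts below, 34.5% of all probe sets were called higher and 28.9% lower. All 11 measured oligodendrocyte genes were called higher on day 12, with a median difference of 24.7 points, and the list mean rose from 61.2 in saline arrays (58.0 to 68.6) to 91.4 on day 12 (87.3 to 93.0). Of 9 immature neuron genes 8 were called lower (median -0.92 points), and of 11 astrocyte genes 8 were called higher (median 1.60). In tissue RNA, fewer cells of a type and less RNA per cell cannot be told apart. Of 26 measured partners of these channels (anchors, auxiliary proteins and regulators), 10 were called higher with age and 4 lower, with a median of 0.32 points. The share of partners called was not above that of all probe sets (63.4%). Pex5l, the HCN channel accessory protein TRIP8b, rose by 16.6 points (SE 1.94) and Cntnap1, which flanks nodes of Ranvier, by 32.3 (SE 1.36). Ank3, the anchor of sodium channels at the axon initial segment, rose by 4.87 (SE 0.55), and the intracellular sodium channel partner Fgf11 fell by 21.6 (SE 0.42). Kcne2, also on the partner list, had its largest fall, by 27.7 (SE 0.59). The partners named here were chosen with their values known.

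Corticosterone and saline pups of day 8 were compared on the smaller design alone, 6 against 10 arrays. L-type calcium channel pores and Hcn2 stood lower in the corticosterone arrays, and Hcn3 and Cacnb3 higher. Limma on percentiles with training as a covariate called 9 of the 39 genes higher and 16 lower, against 27.8% and 34.2% of all probe sets (62.1% in all), so the share was near the background. On the centred log2 scale the split turned to 22 higher and 8 lower (48% and 27% of all probe sets), with a median shift of all probe sets of 0.28. Corticosterone arrays also had a narrower spread of log2 values (SD 2.65 to 2.68 against 3.19 to 3.31 in saline arrays). Agent and separate processing cannot be told apart.

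Cacna1d showed the largest fall. Its percentiles were 25.8, 30.1 and 27.0 in paired and 27.2, 26.9 and 27.2 in unpaired corticosterone samples, against 41.2 to 50.4 (median 43.8) in the 10 saline arrays. The groups did not overlap, and the difference was -17.4 points (SE 1.28, limma adjusted p 1.24e-08). Other probe sets of the gene differed, with 4.59 points higher for one and -1.29 for the other, both at mean percentiles under 25. Cacna1c was at 42.3 to 46.9 in corticosterone and 49.5 to 61.4 in saline arrays, without overlap, a difference of -11.5 points (SE 2.05, limma adjusted p 0.000178). The other Cacna1c probe set, at a mean percentile of 28.2, differed by 0.33 points (limma adjusted p 0.752). The lower position of the kept probe sets of Cacna1c and Cacna1d held on both scales.

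Hcn2 percentiles were 29.4 to 30.2 with corticosterone and 33.3 to 39.8 with saline, without overlap, a difference of -7.07 points (SE 0.95). On the centred log2 scale Hcn2 turned to higher, by 0.34. Hcn3 was higher by 3.99 points (SE 1.05, limma adjusted p 0.00402), Cacnb3 by 3.03 (SE 0.73), Scn3a by 5.19 (SE 1.99, limma adjusted p 0.0345) and Cacna2d1 by 3.90 (SE 1.38), all with overlapping groups, and Cacnb3 turned to -0.01 on the centred log2 scale. Cacnb2 was lower by a difference of -3.08 points (SE 0.76), Cacna1g by -4.33 (SE 1.28) and Cacng2 by -7.36 (SE 3.06, limma adjusted p 0.0484). The other Cacna1g probe set, at a mean percentile of 26.8, went the other way, by 14.7 points (SE 4.88, limma adjusted p 0.0166). Without saline replicates 1 to 2, the samples high for Cacng2, its difference was -2.13 and not called, and that of Scn3a was 1.65. The call of Scn3a was lost without any of 8 single samples and that of Cacng2 without any of 10, and Cacna2d1 was not called without corticosterone paired replicate 3 (3.29).

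Most of the sodium channels named for age did not pass in this comparison. Scn1a differed by -0.22 points (SE 2.09), Scn9a by -0.14 (SE 0.43) and Scn4b by -9.32 (SE 4.11, limma adjusted p 0.0614). Scn2b, low in both groups, fell by 3.72 points (SE 0.79). Its log2 values were 2.59 to 2.65 with corticosterone and 2.54 to 2.78 with saline. These lay nearer the array medians with corticosterone, so the fall of Scn2b rests on the percentile scale. At least 10 points in either direction were reached by 5 genes, 2 higher and 3 lower (4.74% and 4.39% of all probe sets). Beyond Cacna1c and Cacna1d these were Cacng4, lower by a difference of -13.3 points, and Scn10a and Cacng5, higher by 25.0 and 16.6, with Scn10a and Cacng5 named after their values were seen. The Cacng4 groups overlapped (SE 5.20, limma adjusted p 0.0372), with log2 values of 1.73 to 2.06 in corticosterone and 1.61 to 4.71 in saline arrays. The Cacng4 mean lay nearer the array median with corticosterone, so this call too rests on the percentile scale. Scn10a, a channel of pain-sensing neurons, measured 3.64 to 3.70 in corticosterone arrays on the log2 scale and 2.06 to 2.65 in saline arrays.

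Paired training was compared with unpaired training within each condition, the contrast the study was designed for. No channel gene was called in any condition by the rank product test, which requires a pfp (the expected share of false calls) under 0.05. In saline pups 0.0693% of all probe sets were called higher and 0.107% lower, in corticosterone pups 0.0315% higher and 0% lower, and in 12-day pups 0.0504% higher and 0% lower. At these rates less than 1 of 39 genes would be called on average. The authors' deposited tables also call 0 of the 39 genes in each condition, and in all 3 of them Scn4b has the lowest pfp of the 39 (0.0775, 0.446 and 0.234). Limma called 0 genes after adjustment in every condition. Unadjusted p-values were under 0.05 for 3 of 39 in saline pups with array set as a block (6.86% of all probe sets), 2 of 39 in corticosterone pups without a block (2.83%) and 3 of 39 in 12-day pups with the set block (2.95%).

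Most pairing differences were small. In saline pups 26 of the 39 genes differed by less than 0.1 on the log2 scale, in corticosterone pups 32 and in 12-day pups 24. The median difference was 0.02 in saline, -0.01 in corticosterone and -0.02 in 12-day pups, beside 0.02, -0.02 and -0.01 over all probe sets. Regardless of sign, the medians were 0.038, 0.031 and 0.065, beside 0.046, 0.048 and 0.039 over all probe sets. Only in 12-day pups was the median size above that of all probe sets. Paired samples were lower there for 31 genes and higher for 8, against 11 and 28 in saline and 24 and 15 in corticosterone pups.

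Scn4b led in every condition, with the direction of its difference differing between them. In paired saline pups Scn4b measured 3.34 to 5.73 (median 4.64, log2), and in unpaired saline pups 2.86 to 5.03 (median 4.33), with wide overlap. The difference was 0.67 (SE 0.43) with a pfp of 0.0925, and an exact permutation test within array sets gave a two-sided p of 0.0611 (720 relabellings). Within the sets the differences were 0.72, 0.85 and 0.50. The check given with the methods does not show that replicate numbers pair the saline samples. Only 5 of 14 arrays correlated best with their own number, and others of the same set correlated about as well. With equal numbers taken as pairs in place of all combinations, 0 shuffled values reached the rank product of Scn4b (pfp 0), so it was called. This call rests on a pairing that was not shown. That alternative calls 52 probe sets higher and 61 lower, against 11 and 17. Without paired replicate 7 the pfp of Scn4b was 0.0292 and without unpaired replicate 2 it was 0.0482, and it was called there as well. These were the lowest paired and the highest unpaired sample, so leaving out either widens the difference. Both settings leave the array sets unbalanced between the trainings. Without any other single sample it was not called.

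In corticosterone pups Scn4b was at 3.04, 2.21 and 3.29 in paired and 3.36, 3.06 and 3.47 in unpaired samples. The groups overlapped, with paired replicate 2 the lowest, and the difference was -0.45 (SE 0.28, pfp 0.430, exact permutation p 0.2, where 0.1 is the smallest possible). In 12-day pups paired samples measured 5.79, 5.91, 8.69 and 8.93 and unpaired samples 6.19, 7.33, 9.11 and 9.15. Within both array sets each unpaired sample exceeded each paired sample. The difference was -0.61 (pfp 0.26), with an exact permutation p of 0.0556, the smallest that 36 relabellings within sets allow.

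Log2 values had unlike spreads between conditions (SD 2.65 to 2.68 in corticosterone and 3.19 to 3.31 in saline arrays), so pairing effects lie on scales that differ. With that limit, the difference of the pairing effect between conditions was tested directly. For Scn4b it was -1.12 (SE 0.47) for corticosterone minus saline and -1.28 (SE 0.43) for 12-day minus saline pups, and neither passed (limma adjusted p 0.553 and 0.858, unadjusted p 0.0277 and 0.00709). Over the 39 genes 0 passed after adjustment in the 3 contrasts, of which 1, 0 and 0 probe sets did in all (0.0063%, 0% and 0%). At an unadjusted p under 0.05 there were 5 genes for corticosterone minus saline (8.79% of all probe sets), 4 for 12-day minus saline (3.77%) and 0 for 12-day minus corticosterone (1.53%).

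The list of striatal projection neuron genes had median pairing differences of the same sign as Scn4b in each condition, and most of its genes did not pass the test. The median pairing difference of the 11 listed genes was 0.46 in saline, -0.37 in corticosterone and -0.26 in 12-day pups, with 2 called higher in saline pups and 0 elsewhere. Their mean percentile averaged 65.6 in paired (59.5 to 74.0) and 61.6 in unpaired saline samples (54.6 to 68.6). In corticosterone samples it was 63.4 (57.0 to 70.9) and 66.5 (65.2 to 68.7), and in 12-day samples 66.8 (56.9 to 76.4) and 69.0 (58.8 to 76.8). The corticosterone sample with the lowest Scn4b, paired replicate 2, also had the lowest list mean of its condition. The part of this list in the Scn4b differences was not tested.

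**Figure D4:**
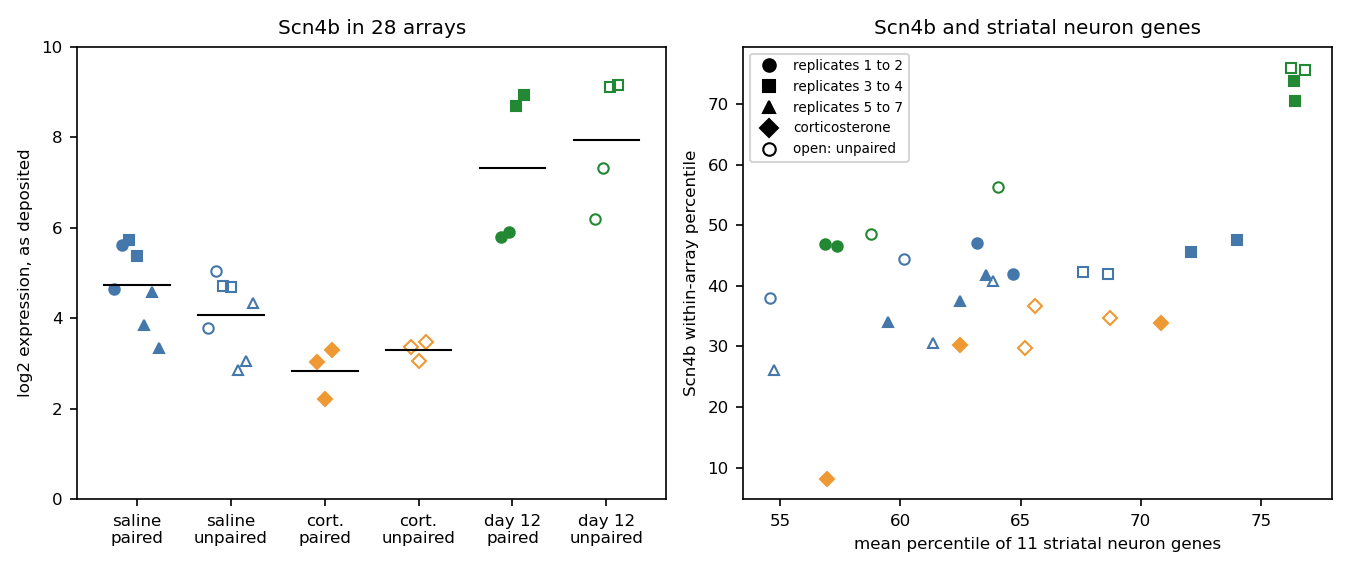
Left, log2 expression of Scn4b as deposited (y axis) in each of the 28 arrays by condition and training, with a line at each group mean; levels are not on a common scale across conditions. Right, the within-array percentile of Scn4b (y axis) against the mean percentile of 11 striatal projection neuron genes (x axis) in the same arrays. Colours mark saline (blue), corticosterone (orange) and day 12 (green), and marker shapes mark the array sets. The 12-day arrays of replicates 3 to 4 lie highest on both axes.

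Among the other channels the leading differences stayed within the spread of the arrays or rested on few samples. Hcn3 measured 5.23 to 5.96 (median 5.60) in paired and 5.34 to 6.47 (median 5.97) in unpaired saline samples. Its difference was -0.34 (SE 0.19, pfp 0.662, exact permutation p 0.05), of which the set of replicates 5 to 7 gave -0.63 and that of replicates 3 to 4 gave -0.01. Cacng8 differed by 0.28, Cacna1a by 0.08, Cacna2d1 by -0.17 and Cacng4 by -0.15 in saline pups, with exact permutation p-values from 0.194 to 0.797.

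In corticosterone pups, paired samples of Cacna1c measured 4.31, 4.16 and 4.11 and unpaired samples 4.41, 4.49 and 4.69. The groups did not overlap, and the difference of -0.34 (SE 0.10, pfp 0.500) had an exact permutation p of 0.1, the smallest possible with 3 against 3. Cacna1g was higher in each paired sample, at 5.88, 5.99 and 5.82 against 5.68, 5.72 and 5.71, a difference of 0.19 (SE 0.08) with the same exact permutation p of 0.1. In all 4 of the 39 genes had groups without overlap in corticosterone pups, the others being Hcn2 and Scn4a with differences under 0.05, and 6.96% of all probe sets did. Cacng2 and Scn2a differed by 0.24 and 0.18, with exact permutation p-values of 0.6 and 0.4.

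In 12-day pups Cacna1d measured 5.57, 5.57, 5.83 and 5.41 in paired and 5.80, 5.79, 6.16 and 6.28 in unpaired samples. The groups overlapped by 1 paired sample, and the difference was -0.41 (SE 0.15, pfp 0.568, exact permutation p 0.0556). Cacna1a varied far more between array sets (6.58 to 7.57 in replicates 1 to 2, 3.46 to 4.44 in replicates 3 to 4) than between trainings, with a difference of 0.21 (pfp 0.287, exact permutation p 0.611). Without unpaired replicate 1 or 2 of that condition, Cacna1a was called higher, with pfp values of 0.0430 and 0.0241, a setting that leaves the array sets unbalanced between the trainings. Scn7a, Cacng2 and Cacng8 differed by 0.24, 0.12 and -0.36, with exact permutation p-values from 0.278 to 0.778. Groups without overlap were found for 1 gene, Cacna1i, at log2 values of 2.44 to 2.76, and for 0.485% of all probe sets.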

How the data were processed

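Amygdala RNA of 28 rat pup samples was measured on Affymetrix arrays of 2 designs, and the 15866 probe sets common to both were used. The authors deposited log2 expression values per array, with RMA and GCRMA named, but not their versions, per the submitters' processing notes. Annotation and further settings are not given in the sources used here. The authors also deposited 1 rank product table per condition, which, per the file headers, holds a rank product score, a fold change as a ratio, a pfp score and a p-value per probe set. Its fold changes matched differences of the deposited log2 values to within 0.000307 (log2). Symbols came from these tables and were updated through RefSeq (GRCr8), by accession for 3080 probe sets, by current symbol for 1890 and by older symbol for 727. The symbol of the file was left for 330, and 9839 were unnamed.

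Percentiles (0 to 100) were computed within each array. The main test of age and corticosterone was limma 3.58.1 in R 4.3.3 (lmFit, eBayes with a trend, Benjamini-Hochberg adjusted p under 0.05) on percentiles. Training was tested by rank products over all pairs of a paired and an unpaired array (100 seeded shuffles within arrays, pfp under 0.05, each direction apart), with standard errors from limma without a block. Differences of the training effect between conditions were tested by limma on log2 values with array sets as blocks, and single genes by two-sided exact permutation within array sets. All fits ran on all probe sets and were tested on simulated data. Python 3.11.15, numpy 2.4.6, pandas 2.3.3, scipy 1.17.1 and matplotlib 3.10.9 served the rest.

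The genes, the lists beside them and the tests were chosen with earlier results of these data known. Named are genes called by training, per training comparison the 3 per direction with the smallest rank product, called genes with a mean percentile of at least 50 (8 per direction for age, 5 for corticosterone), and the main sodium, calcium pore and HCN genes whatever their values. For corticosterone, these last are given in part. Arrays with the same replicate number deviated together from their group means. Correlations ran from 0.54 to 0.86 over 7 pairs in saline and from 0.60 to 0.73 over 4 pairs in 12-day pups. Arrays of other numbers in the same array set correlated about as well. Only 5 of 14 saline and 5 of 8 12-day arrays correlated best with their own number. The check thus shows array sets and not pairs, and numbers served as pairs only in alternative settings. Alternatives were other scalings, blocks, single designs and leaving out samples. Some of the 39 genes are in the counts but not reported here by value. The number of arrays limits the precision.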

Additional observations from a re-analysis of the deposited data

Results flagged for a closer look

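In 11 of 108 tests of a channel gene in a training group (10.2%), where chance flags about 1 in 20, a single sample stood apart from the other samples of its group on the log2 scale (Dixon's test, groups of 4 to 7 samples). Saline replicate 1 stood high for 3 genes. Cacna1a was at 6.97 in the paired and 5.77 in the unpaired sample of that number, Cacna1d at 6.04 in the paired and Hcn2 at 4.03 in the unpaired sample. Low-level Cacna1i was high in saline paired replicate 5 (2.52), saline unpaired replicate 6 (2.34) and 12-day unpaired replicate 2 (2.76). Scn1a was low in saline paired replicate 5 (6.67) and Scn9a high in saline unpaired replicate 4 (5.04). In 12-day pups, Scn2a was low in paired replicate 3 (10.33, with the nearest other sample at 10.55) and Scn7a high in paired replicate 4 (3.83).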

How the results depend on the processing

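Of 336 values of single genes under settings that leave out no single sample, 290 kept their direction and side of the threshold, 29 lost and 6 gained a call, and 11 turned. The cause was not tested. For training in saline pups, the replicate block in the rank product called 1 gene. Leaving out single samples gave 0 to 1 genes in saline, 0 to 0 in corticosterone and 0 to 1 in 12-day pups, and 0 to 0 for the differences between conditions. In corticosterone pups the replicate numbers do not pair the samples (correlations from -0.28 to 0.04, 1 of 6 arrays nearest its own number). For training in saline pups, limma with the replicate block gave 5 genes at an unadjusted p under 0.05 (13.5% of all probe sets). With the array set block there were 3 (6.86%). The replicate block changed no other count of called genes by over 1.5 times. For age the counts were 8 of 13 genes tested in the upper part of the arrays, 9 of 39 at 10 points or more and 26 to 31 of 39 without single samples. For corticosterone they were 6 of 13, 5 of 39 and 21 to 28 of 39. In the main fits 63.4% of all probe sets were called for age and 62.1% for corticosterone. At 10 points or more these shares were 8.14% and 9.13%. The share of all probe sets in the upper part is not given here.

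In 12-day pups the training difference turned on the smaller design alone for Cacna1a (-0.42) and Cacng2 (-0.10). With age, centred log2 values turned Cacna1f (-0.37) and Hcn2 (-0.0500), and the larger design alone turned Hcn2 (-0.52). Without saline replicates 5 to 7, with or without the replicate block, Hcn2 gave -0.22 and Scn2a -0.619. With corticosterone, among the genes followed under other settings, centring turned Cacnb3 (-0.0117) and Hcn2 (0.34). Without single samples the training difference ran from -0.48 to 0.45 for Cacna1a, from -0.47 to 0.14 for Cacna2d1 and from -0.46 to 0.0840 for Cacng4 in saline pups, and from -0.45 to 0.92 for Cacna1a and from -0.12 to 0.33 for Cacng2 in 12-day pups. Low signals limit what can be said of the 15 genes under the 35 percentile.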
